A study of Rattus norvegicus with 21 samples.

Results

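The change in mRNA levels between 0.5 h and 2 h of FGF1 treatment was measured in rat bladder carcinoma cells on 6 of the 21 arrays of a time course. These 6 arrays were taken by their titles: NBTII cells at 0.5 h (1 array) and at 2 h (2 arrays), and NBTII-FGFR1 cells at 0.5 h (1 array) and at 2 h (2 arrays). NBTII is an epithelial carcinoma line of the rat bladder, and NBTII-FGFR1 is the same line transfected with FGF receptor 1; the labels name no promoter and do not say whether the transfected line is 1 clone. All 6 arrays come from cells given FGF1 at 20 ng/ml together with heparin at 50 µl/ml, as the labels write it. No array after 0 h lacks FGF1, so the effects of FGF1, heparin, time and handling cannot be told apart. The step is the 2 h level minus the 0.5 h level within each line, in log2 units, where 1 unit is a 2-fold change, and the main value is the mean of the steps of both lines. The labels do not say whether replicates are separate cultures, so a p-value here reflects no more than the spread among these arrays, which may be technical. As each line has 1 array at 0.5 h, the spread at that time was taken from the other groups of the time course. In these bulk samples, fewer cells expressing a gene and less RNA per cell cannot be told apart.

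FGF1 binds FGF receptors together with heparan sulfate or heparin and activates, among others, the RAS and ERK kinase pathway. Cells answer such a signal with a first wave of genes that need no new protein synthesis, the immediate-early genes, many of which code for transcription factors such as FOS, JUN, EGR1 and NR4A1. Their mRNAs are short-lived and are removed in part by decay factors such as ZFP36. A later wave, made under the control of first-wave factors, includes feedback inhibitors of the ERK pathway, secreted growth factors and proteases, and in NBTII cells FGF1 is known to cause scattering and a mesenchymal shape.

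The labels of the 6 arrays were first compared with the transfected gene. Fgfr1 signal was 3.77 at 0.5 h and 3.89 and 3.68 at 2 h in NBTII, against 7.50 at 0.5 h and 7.58 and 6.67 at 2 h in NBTII-FGFR1, so all 6 arrays match the line in their title. Among the 0 h arrays, which are quoted below only as reference levels, the library labelled NBTII-FGFR1 replicate 1 had an Fgfr1 signal of 3.57, close to the 3.97 of NBTII. Of 11 measured urothelial and epithelial markers, 9 lay above the lower quartile of the array (4.36 to 4.54) on all 6 arrays. So did 2 of 11 fibroblast, 5 of 13 leukocyte and 3 of 9 endothelial markers. Most probe sets lie above a lower quartile by definition, so the epithelial count alone does not establish the cell type. The mean level per array was 8.04 to 8.33 for epithelial and 4.07 to 4.25 for fibroblast markers. It was 4.29 to 4.49 for leukocyte and 4.39 to 4.57 for endothelial markers. Spiked control RNA read 5.82 to 5.99 on average over the 6 arrays and 5.58 to 6.02 over all arrays after 0 h. On the 0 h arrays it was higher, at 7.07 in NBTII and 6.65 and 6.49 in NBTII-FGFR1. Comparisons with 0 h levels below cross this technical difference, and its part in them was not tested. Of the leukocyte markers Cd68 fell by 0.94 ± 0.11 (adjusted p = 0.00059). NBTII-FGFR1 2 h replicate 1 correlated at r = 0.990 with the NBTII 0.5 h array and at r = 0.988 with its own replicate 2. With the 0.5 h array of its own line r was 0.987. The NBTII 2 h replicates correlated at r = 0.992, and NBTII 2 h replicate 2 with the NBTII 0.5 h array at r = 0.989. These differences in r are small, so results are given both with and without NBTII-FGFR1 2 h replicate 1.

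In the mean of both lines the leading immediate-early factors Fos, Jun and Atf3 fell from 0.5 h to 2 h. The decay factor Zfp36 and the phosphatase Dusp1 fell with them. Within NBTII all of these passed the test. Within NBTII-FGFR1 Zfp36 passed, while Fos, Jun, Atf3 and Dusp1 did not on the probe sets described below. The MYC antagonist Mxd1, the protease genes Mmp13, Mmp3 and Plaur, and tissue factor (F3) rose in the mean of both lines. So did the EGF receptor ligands Hbegf, Areg and Ereg. Of 15866 probe sets tested, 197 rose and 147 fell in the mean of both lines at an adjusted p below 0.05 (limma), which is 1.24% and 0.927% of all (2.17% together). Counted with 1 probe set per gene, 130 of 10411 genes rose (1.25%) and 99 fell (0.951%). These shares of all genes are the ones to set beside the counts in gene lists below. Within NBTII alone 52 probe sets rose (0.328%) and 121 fell (0.763%), together 1.09%; with 1 probe set per gene these were 34 genes (0.327%) and 67 genes (0.644%). Within NBTII-FGFR1 alone 222 rose (1.4%) and 45 fell (0.284%), together 1.68%, or 137 genes (1.32%) and 32 genes (0.307%). This split was 256 to 152 without NBTII-FGFR1 2 h replicate 1 and 436 to 347 without replicate 2. The lists of the lines overlapped in part: the 17 probe sets called higher in both lines are 32.7% of the NBTII list and 7.66% of the NBTII-FGFR1 list, and the 10 called lower in both are 8.26% and 22.2%. A model of only these 6 arrays, with 2 residual degrees of freedom, called 0 probe sets (smallest adjusted p = 0.055, 1011 at an unadjusted p below 0.05), so every call below rests on the spread estimated over the whole time course. Without NBTII-FGFR1 2 h replicate 1, 421 probe sets rose (2.65%) and 520 fell (3.28%), or 288 genes (2.77%) and 390 genes (3.75%). Over the 147 called lower with all arrays, the median step in NBTII-FGFR1 was -0.39 on replicate 1 and -0.74 on replicate 2. Leaving out replicate 1 thus enlarges these steps, and its group, left with 1 array, no longer adds to the spread. Results without that array, here and below, are therefore no independent check of the calls. List counts in that setting are to be set beside its larger shares of all genes.

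Among 17 measured immediate-early AP-1, EGR and NR4A factors, 6 fell and 0 rose within NBTII (median -0.46). Within NBTII-FGFR1 0 fell and 2 rose (median 0.03). The 2 were Fosl1 (1.51, adjusted p = 0.0043) and Nr4a3 (2.50, adjusted p = 0.026, limma). In the mean of both lines 5 fell and 1 rose, beside 0.951% and 1.25% of all genes. The median step was -0.09, beside 0.00 over all probe sets. Without NBTII-FGFR1 2 h replicate 1, 6 fell and 5 rose. Fos, the AP-1 subunit that pairs with JUN, had a signal of 10.68 in NBTII and of 11.09 in NBTII-FGFR1 at 0.5 h. The 2 h arrays gave 6.50 and 7.08 in NBTII and 9.78 and 8.82 in NBTII-FGFR1, and it fell by 2.84 ± 0.35 (SE) in the mean of both lines (adjusted p = 0.00062). All 4 arrays at 2 h lay below the 0.5 h array of their line, and within the lines the step passed the test in NBTII (-3.89, adjusted p = 0.0016) but not in NBTII-FGFR1 (-1.79, adjusted p = 0.088, and -2.27, adjusted p = 0.032, without NBTII-FGFR1 2 h replicate 1); the difference of these steps did not pass (2.10 ± 0.69, adjusted p = 0.19). The other Fos probe set was not called (0.10 ± 0.14, adjusted p = 0.90). Fos at 0 h was 4.90 in NBTII and 9.52 and 9.03 on the arrays labelled NBTII-FGFR1, so the 2 h levels of the transfected line were close to its own 0 h levels, while those of NBTII were still above its single 0 h array.

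Jun, the main partner of FOS, read 10.72 and 11 at 0.5 h in NBTII and NBTII-FGFR1. It read 8.62 and 9.10 at 2 h in NBTII and 10.18 and 9.08 in NBTII-FGFR1, and fell by 1.62 ± 0.25 (adjusted p = 0.0034); its 2 other probe sets fell too. Atf3, a stress-induced factor of the ATF and CREB family, read 9.94 and 9.27 at 0.5 h in the same order. At 2 h it was 6.30 and 6.61 in NBTII but 9.74 and 7.34 in NBTII-FGFR1, where replicate 1 lay above the 0.5 h array. Its mean step was -2.11 ± 0.48 (adjusted p = 0.036), and -2.71 (adjusted p = 0.00022) without that array.

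The other direction was taken by Fosl1, the FOS relative FRA-1, which is itself a target of AP-1. Its signal was 10.46 and 9.93 at 0.5 h, 11.51 and 11.26 at 2 h in NBTII, and 11.23 and 11.66 at 2 h in NBTII-FGFR1, a rise of 1.22 ± 0.16 (adjusted p = 0.0011). No 2 h array overlapped the 0.5 h arrays. Junb stayed high, with 10.07 and 10.53 at 0.5 h and 9.93 to 10.96 over the 4 arrays at 2 h (0.16 ± 0.23, adjusted p = 0.91). Egr1, a zinc finger factor that is among the first ERK targets, read 11.36 and 11.26 at 0.5 h. At 2 h it read 9.03 and 10.14 in NBTII and 11.77 and 11.05 in NBTII-FGFR1 (-0.81 ± 0.39, adjusted p = 0.44), so the NBTII arrays lay below their 0.5 h array and those of the transfected line on both sides of it. Egr2 had a step of -0.79 ± 0.36 (adjusted p = 0.38), and of -1.17 (adjusted p = 0.026) without NBTII-FGFR1 2 h replicate 1.

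Fosb and Nr4a1 fell in NBTII and not in NBTII-FGFR1, and here the difference between the lines itself passed the test. Fosb, another AP-1 subunit, read 8.45 at 0.5 h and 5.09 and 5.79 at 2 h in NBTII (-3.01 ± 0.25, adjusted p = 7.9e-05). In NBTII-FGFR1 it read 7.52 at 0.5 h and 7.59 and 7.43 at 2 h (-0.01 ± 0.25, adjusted p = 0.99), so both replicates held the 0.5 h level. The difference of the steps was 3.0 ± 0.35 (adjusted p = 0.0029). Nr4a1, an orphan nuclear receptor, read 10.26 at 0.5 h and 7.04 and 7.64 at 2 h in NBTII, against 8.49 at 0.5 h and 8.99 and 9.03 at 2 h in NBTII-FGFR1. Its steps were -2.92 ± 0.33 (adjusted p = 0.00098) and 0.52 ± 0.33 (adjusted p = 0.58), with a difference of 3.44 ± 0.46 (adjusted p = 0.004). For both genes part of this difference lies at 0.5 h, where the NBTII array was the higher one, and part at 2 h, where the NBTII-FGFR1 arrays were higher. The mean steps of Fosb (-1.51 ± 0.18, adjusted p = 0.00053) and Nr4a1 (-1.20 ± 0.23, adjusted p = 0.014) are therefore averages of unlike steps. By 6 h Nr4a1 read 5.74 to 6.06 on all 4 arrays. The relative Nr4a2 had steps of -1.16 (adjusted p = 0.011) and 0.32 (adjusted p = 0.57), with a difference of 1.48 ± 0.28 (adjusted p = 0.031).

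**Figure D1:**
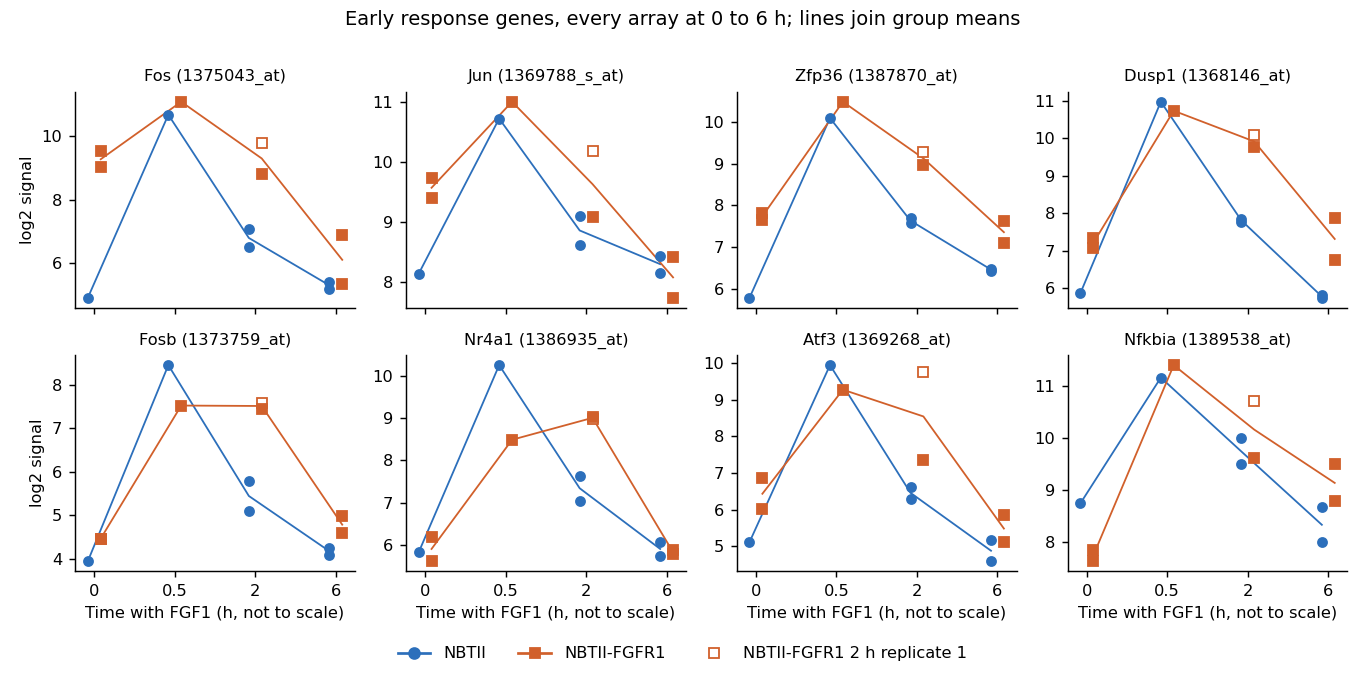
log2 signal of 8 early response genes on every array at 0, 0.5, 2 and 6 h with FGF1 (x axis, not to scale), with circles for NBTII, squares for NBTII-FGFR1 and lines through the group means. The open square is NBTII-FGFR1 2 h replicate 1, which for Atf3 (9.74) lies above the 0.5 h array of its line (9.27), and the Fosb and Nr4a1 levels of NBTII-FGFR1 at 2 h stay near or above those at 0.5 h.

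Zfp36, which binds AU-rich elements of mRNAs and starts their decay, fell in both lines. It read 10.09 and 10.48 at 0.5 h, 7.70 and 7.57 at 2 h in NBTII, and 9.29 and 8.96 at 2 h in NBTII-FGFR1. The step was -1.91 ± 0.19 (adjusted p = 0.00046), and it passed in NBTII (-2.45, adjusted p = 0.00098) and in NBTII-FGFR1 (-1.36, adjusted p = 0.023). In the mean of both lines Zfp36 was the only one called of 17 measured mRNA decay and antiproliferative genes, each by its brightest probe set. Rc3h1 of this list rose within NBTII-FGFR1 (1.38, adjusted p = 0.0029, limma), and its other probe set was called higher in the mean. Ier2, an early nuclear protein, read 10.84 and 11.21 at 0.5 h, 9.52 and 9.89 at 2 h in NBTII, and 10.96 and 10.07 at 2 h in NBTII-FGFR1 (-0.91 ± 0.19, adjusted p = 0.024). Ier3, a survival factor, fell by 0.87 ± 0.19 (adjusted p = 0.032). Rgs2, an inhibitor of G protein signaling, fell by 0.90 ± 0.14 (adjusted p = 0.0032), a mean of unlike steps: -1.60 (adjusted p = 0.0016) in NBTII and -0.20 (adjusted p = 0.76) in NBTII-FGFR1, with a line difference of 1.40 (adjusted p = 0.035). Per2, a clock repressor, fell by 0.88 ± 0.20 (adjusted p = 0.037). With Ptgs2 as the 1 riser, 4 of 29 measured other early response genes fell, and without NBTII-FGFR1 2 h replicate 1 7 fell and 2 rose. Of 9 Kruppel-like factors 0 were called in the mean of both lines (limma, 4 at an unadjusted p below 0.05). Klf3 had a mean step of -0.93 ± 0.24 (adjusted p = 0.06), or -1.20 without NBTII-FGFR1 2 h replicate 1. Klf4 had one of -0.33 ± 0.09 (adjusted p = 0.085), or -0.39 without that array, and Klf6 one of 0.05 ± 0.16 (adjusted p = 0.97). Within NBTII Klf3 (-1.96, adjusted p = 0.012) and Klf4 (-0.70, adjusted p = 0.02) fell. In NBTII-FGFR1 their steps were 0.09 and 0.04, and the line differences did not pass (adjusted p = 0.062 and 0.076).

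The FGF and ERK feedback genes split in the same interval: of 10 measured, 3 rose and 2 fell, with a median step of 0.21. Dusp1, the nuclear phosphatase that inactivates MAP kinases, read 10.98 and 10.74 at 0.5 h. It read 7.77 and 7.86 at 2 h in NBTII and 10.08 and 9.76 in NBTII-FGFR1 (-1.99 ± 0.33, adjusted p = 0.0048). All 2 h arrays lay below their 0.5 h array, and the fall passed within NBTII (-3.16, adjusted p = 0.0044) but not within NBTII-FGFR1 (-0.82, adjusted p = 0.53), with no call on the difference (2.34 ± 0.66, adjusted p = 0.12). Spry1, an inhibitor of receptor kinase signaling, read 6.87 and 7.06 at 0.5 h, 5.50 and 5.46 at 2 h in NBTII and 6.79 and 5.79 in NBTII-FGFR1 (-1.08 ± 0.23, adjusted p = 0.023).

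Its relative Spry2 went the other way. Spry2 read 5.63 and 5.97 at 0.5 h, 7.10 and 7.13 at 2 h in NBTII, and 7.56 and 7.77 in NBTII-FGFR1, a rise of 1.59 ± 0.11 (adjusted p = 1.1e-05) that passed in each line. Its steps of 1.49 and 1.69 differed by 0.20 ± 0.23 (adjusted p = 0.74). Dusp6, the cytoplasmic ERK phosphatase, read 11.18 and 11.93 at 0.5 h and 12.22 to 12.62 at 2 h (0.87 ± 0.12, adjusted p = 0.0015). Errfi1, an inhibitor of the EGF receptor, rose by 1.28 ± 0.27 (adjusted p = 0.022), and Dusp5, the nuclear ERK phosphatase, had a step of 1.15 ± 0.29 (adjusted p = 0.056). Without NBTII-FGFR1 2 h replicate 1 Dusp5 passed (1.39, adjusted p = 0.0071), which makes 4 risers in the list. The plot of list members shows this split as points on both sides of 0.

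Promoters of 3 genes that fell are printed because they carry, within the 250 bases before the RefSeq start (build GRCr8), an exact match on either strand to an element known from early response genes: the cyclic AMP response element TGACGTCA in Dusp1 and Ier2, and a CArG box, the element bound by serum response factor, in Zfp36. Dusp1 lies at chr10:17184603-17184852 (plus strand), Ier2 at chr19:40399123-40399372 (plus strand) and Zfp36 at chr1:92799109-92799358 (minus strand). Capitals mark the match, and each sequence is written 5′ to 3′ on the strand of its gene.
Dusp1: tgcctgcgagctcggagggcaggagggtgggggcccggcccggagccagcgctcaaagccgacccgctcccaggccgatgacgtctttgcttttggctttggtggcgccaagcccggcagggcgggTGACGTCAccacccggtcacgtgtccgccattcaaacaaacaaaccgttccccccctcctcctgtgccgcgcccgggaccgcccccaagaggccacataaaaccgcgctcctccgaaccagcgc
Ier2: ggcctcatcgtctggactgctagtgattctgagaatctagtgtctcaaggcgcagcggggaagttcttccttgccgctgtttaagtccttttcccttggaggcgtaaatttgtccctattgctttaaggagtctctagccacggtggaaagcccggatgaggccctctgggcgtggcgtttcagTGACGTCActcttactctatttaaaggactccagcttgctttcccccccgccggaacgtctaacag
Zfp36: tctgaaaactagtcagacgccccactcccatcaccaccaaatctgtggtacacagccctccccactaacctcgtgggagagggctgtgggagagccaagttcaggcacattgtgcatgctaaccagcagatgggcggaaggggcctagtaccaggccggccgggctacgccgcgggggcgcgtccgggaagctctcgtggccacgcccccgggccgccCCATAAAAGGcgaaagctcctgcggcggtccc
A match is a description of the letters only, and no binding was measured here. Of 104 genes with a probe set called lower, 85 had a promoter in the table, and 6 of these (7.06%) held TGACGTCA, against 2.65% of the 8610 promoters of genes on the array and 1.59% of all 33469. The 6 genes were Dusp1, Fat1, Ier2, Il6, Slc25a33 and Troap. The CArG box was found in 2 of the 85 (2.35%, Kctd15 and Zfp36), against 1.3% of genes on the array. Among genes called higher it was in 3 of 115 promoters (2.61%, Arhgap17, Fhl2 and Srf). No promoter was available for Fos and Jun, and these counts are small. They do not decide whether the box goes with either direction.

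NF-kB targets, cytokines and chemokines moved both ways: of 33 measured, 4 rose and 3 fell, with a median step of 0.15, and without NBTII-FGFR1 2 h replicate 1 5 rose and 7 fell. Nfkbia, the inhibitor that holds NF-kB in the cytoplasm and is itself induced by it, read 11.16 and 11.40 at 0.5 h. At 2 h it was 9.99 and 9.49 in NBTII and 10.71 and 9.61 in NBTII-FGFR1 (-1.32 ± 0.31, adjusted p = 0.039). Every 2 h array was lower than the 0.5 h array of its line. Tnf, an inflammatory cytokine, read on the probe set with the larger step 4.48 and 5.32 at 0.5 h and 3.56, 3.44, 4.10 and 3.48 at 2 h (-1.26 ± 0.14, adjusted p = 0.00053). Il6, another cytokine, read 5.55 and 4.67 at 0.5 h and 3.62, 3.56, 4.95 and 3.24 at 2 h (-1.27 ± 0.28, adjusted p = 0.033). These 2 h levels lay mostly below the lower quartile of their array. The brighter Tnf probe set read 5.36 and 5.87 at 0.5 h and 5.05 to 5.18 at 2 h, above that quartile, and fell by 0.52 ± 0.10 (adjusted p = 0.017).

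For Cxcl1 and Irf1 the call depended on 1 array. Cxcl1, a neutrophil attractant, read 10.96 and 11.34 at 0.5 h, 9.40 and 7.63 at 2 h in NBTII, and 11.27 and 7.22 at 2 h in NBTII-FGFR1. The last pair spans over 4 units between replicates, and the mean step did not pass (-2.27 ± 0.75, adjusted p = 0.16), whereas without replicate 1 it was -3.28 (adjusted p = 0.00037). The interferon regulatory factor Irf1 behaved alike, with 6.77 and 7.61 at 0.5 h, 4.91 and 5.02 at 2 h in NBTII and 7.60 and 4.57 in NBTII-FGFR1 (-1.67 ± 0.50, adjusted p = 0.12, and -2.42, adjusted p = 2.1e-07, without replicate 1). Icam1, a leukocyte adhesion molecule, read 9.70 and 9.39 at 0.5 h and 9.25, 8.40, 10.44 and 8.39 at 2 h (-0.43 ± 0.41, adjusted p = 0.80, and -0.94, adjusted p = 0.050, without replicate 1).

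Other cytokine genes rose. Ccl2, a monocyte attractant, read 5.57 and 4.98 at 0.5 h, 7.17 and 7.72 at 2 h in NBTII, and 7.01 and 6.76 in NBTII-FGFR1 (1.89 ± 0.40, adjusted p = 0.023). All 2 h arrays were higher than both 0.5 h arrays, and at 6 h the signal was back at 4.95 to 5.55. Cx3cl1, a membrane-bound chemokine, read 7.15 and 6.94 at 0.5 h, 9.11 and 9.30 at 2 h in NBTII, and 7.65 and 7.39 in NBTII-FGFR1 (1.32 ± 0.21, adjusted p = 0.0038). It passed in NBTII (2.05, adjusted p = 0.0044, limma) and not in NBTII-FGFR1 (0.58, adjusted p = 0.47), with no call on the difference (-1.47, adjusted p = 0.13). The colony-stimulating factor gene Csf3 rose by 1.55 ± 0.35 (adjusted p = 0.034). Ptgs2, the inducible cyclooxygenase, read 10.10 and 8.93 at 0.5 h and 10.29, 10.37, 10.98 and 10.16 at 2 h (0.93 ± 0.21, adjusted p = 0.037); most of this mean step came from NBTII-FGFR1 (1.63, adjusted p = 0.015, against 0.23, adjusted p = 0.78, in NBTII), and the line difference did not pass (1.40 ± 0.43, adjusted p = 0.16).

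A further group of fallers, put together after their values were seen, had been near the 0 h level at 0.5 h and dropped below it at 2 h. Ajuba, a LIM scaffold protein of cell junctions and the Hippo pathway, read 9.36, 9.68 and 9.77 at 0 h and 9.21 and 9.45 at 0.5 h. At 2 h it read 7.92 and 7.37 in NBTII and 8.91 and 6.77 in NBTII-FGFR1 (-1.59 ± 0.38, adjusted p = 0.043, and -2.13, adjusted p = 1.1e-05, without NBTII-FGFR1 2 h replicate 1). At 6 h it read 8.87 to 9.63, near the 0 h level again. Ezh1, a histone methyltransferase of the Polycomb complex, read 7.61 to 7.77 at 0 h, 7.73 and 7.77 at 0.5 h, and 5.78, 5.67, 7.57 and 5.82 at 2 h (-1.54 ± 0.35, adjusted p = 0.033). The third of these 2 h values is NBTII-FGFR1 replicate 1, which alone stayed close to the 0.5 h level. Cdca7, a nuclear protein induced in proliferating cells, read 9.24 and 9.74 at 0.5 h and 7.79, 7.75, 8.93 and 7.44 at 2 h (-1.51 ± 0.32, adjusted p = 0.025). Amotl2, an angiomotin that binds YAP at junctions, went from 7.98 and 7.86 to 7.46 and 7.01 in NBTII and 6.84 and 5.92 in NBTII-FGFR1 (-1.11 ± 0.26, adjusted p = 0.037); unlike the others it was already lower at 0.5 h than on the 0 h arrays (8.51 to 9.02).

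Depp1, a regulator of autophagy known as a FOXO target, also fell. It read 7.41 and 8.49 at 0.5 h and 5.90, 5.92, 6.00 and 5.62 at 2 h (-2.09 ± 0.25, adjusted p = 0.00059), so the 2 h arrays of both lines met at 1 level, and the step passed in NBTII-FGFR1 (-2.68, adjusted p = 0.0021). Tns3, a tensin of focal adhesions, read 9.28 and 9.61 at 0.5 h and 7.27, 7.93, 9.48 and 8.24 at 2 h (-1.22 ± 0.26, adjusted p = 0.026). Cdkn1b, the cell cycle inhibitor p27, fell by 0.70 ± 0.10 (adjusted p = 0.0022). By brightest probe sets it was the 1 called member of 19 cyclins D, cell cycle inhibitors and p53 targets. Cdkn1a of this list had a step of 1.04 ± 0.27 (adjusted p = 0.062, limma), and of 1.27 without NBTII-FGFR1 2 h replicate 1. The other Cdkn1a probe set was called higher with all arrays. The Notch-responsive repressor Hes1 fell by 0.93 (adjusted p = 0.0022) in NBTII-FGFR1 and had a step of -0.05 (adjusted p = 0.89) in NBTII, with a line difference of -0.88 ± 0.18 (adjusted p = 0.035).

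The largest rise was in Mxd1, which pairs with MAX and competes with MYC for DNA. Mxd1 read 7.06 and 6.42 at 0.5 h, 9.71 and 9.86 at 2 h in NBTII, and 9.17 and 10.81 in NBTII-FGFR1, a rise of 3.15 ± 0.44 (adjusted p = 0.0015). All 2 h arrays lay more than 2 units above the 0.5 h arrays. Its relative Mxi1 read 8.45 and 8.42 at 0.5 h and 10.38, 10.26, 9.80 and 10.64 at 2 h (1.83 ± 0.24, adjusted p = 0.001), and passed in each line. These 2 antagonists were the called members of the 10 measured in the MYC network, where 3 rose and 1 fell without NBTII-FGFR1 2 h replicate 1; Myc itself read 9.36 and 9.96 at 0.5 h and 10.06, 9.99, 9.83 and 9.46 at 2 h (0.17 ± 0.12, adjusted p = 0.67). Asprv1, an aspartic protease that processes profilaggrin in epidermis, read 8.43 and 8.41 at 0.5 h, 11.36 and 11.11 at 2 h in NBTII, and 10.85 and 12.24 in NBTII-FGFR1 (2.97 ± 0.35, adjusted p = 0.00053). Asprv1 and Mxd1 are neighbours on chromosome 4 in the RefSeq annotation, with 0 genes between them. Asprv1 was called alone among 27 keratin and squamous differentiation genes, and without NBTII-FGFR1 2 h replicate 1 Sfn (0.54, adjusted p = 0.016) and Tgm1 (0.93, adjusted p = 0.046) rose too.

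Genes of pericellular proteolysis moved up where they were called: 6 of 31 measured rose and 0 fell, beside 1.25% and 0.951% of all genes. The median step of the list was 0.14 (limma, 11 at an unadjusted p below 0.05 in either direction). Without NBTII-FGFR1 2 h replicate 1, 9 rose and 0 fell. Mmp13, a collagenase, read 6.13 and 6.55 at 0.5 h, 8.99 and 7.64 at 2 h in NBTII, and 10.10 and 8.24 in NBTII-FGFR1 (2.40 ± 0.45, adjusted p = 0.011). Mmp3, stromelysin-1, read 3.91 and 4.21 at 0.5 h, below the lower quartile. It was 4.77 and 4.42 at 2 h in NBTII and 8.10 and 7.33 in NBTII-FGFR1 (2.10 ± 0.38, adjusted p = 0.0097). The step was 3.51 (adjusted p = 0.0047) in NBTII-FGFR1 and 0.69 (adjusted p = 0.62) in NBTII, and the difference did not pass (2.82 ± 0.76, adjusted p = 0.11). By 6 h Mmp3 read 10.34 and 10.20 in NBTII-FGFR1 and 5.46 and 6.21 in NBTII. Mmp9, a gelatinase, read 3.66 and 4.0 at 0.5 h and 5.08, 4.40, 6.56 and 6.35 at 2 h (1.77 ± 0.25, adjusted p = 0.0015). It passed in NBTII-FGFR1 (2.46, adjusted p = 0.0029, limma) and not in NBTII (1.08, adjusted p = 0.18), with no call on the difference (1.38, adjusted p = 0.24). Both Mmp3 and Mmp9 were below the lower quartile of their array at 0.5 h, so their size of change from that time is uncertain. Mmp10, stromelysin-2, read 4.14 and 4.27 at 0.5 h and 4.47, 4.42, 5.40 and 7.57 at 2 h (1.26 ± 0.56, adjusted p = 0.38, and 1.80, adjusted p = 0.044, without NBTII-FGFR1 2 h replicate 1).

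In the urokinase system the receptor and its ligand both rose. Plaur, the urokinase receptor, read 8.48 and 7.98 at 0.5 h, 9.87 and 9.78 at 2 h in NBTII, and 10.51 and 11.35 in NBTII-FGFR1 (2.15 ± 0.30, adjusted p = 0.0015), with no overlap between the times. Within the lines Plaur passed in NBTII-FGFR1 (2.95, adjusted p = 0.0029, limma) and not in NBTII (1.34, adjusted p = 0.16). The line difference did not pass (1.61, adjusted p = 0.25). The other Plaur probe set was not called. Plau, urokinase itself, read 9.28 and 9.44 at 0.5 h and 11.07, 9.90, 10.77 and 10.64 at 2 h (1.24 ± 0.22, adjusted p = 0.0084). Adam10, a membrane protease that sheds surface proteins, rose by 0.70 ± 0.16 (adjusted p = 0.031). F3, tissue factor, which starts coagulation, read 7.81 and 8.96 at 0.5 h, 10.91 and 10.71 at 2 h in NBTII, and 10.10 and 11.18 in NBTII-FGFR1 (2.34 ± 0.25, adjusted p = 0.00046). It passed in each line, with steps of 3.0 and 1.68. Prss22, a serine protease, read 5.43 and 5.78 at 0.5 h and 7.75, 8.26, 6.72 and 8.90 at 2 h (2.31 ± 0.50, adjusted p = 0.026).

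The promoters of Mmp13, Mmp3 and Plaur are printed because each holds an exact match, on either strand, to the AP-1 element TGAGTCA within 250 bases of the RefSeq start (GRCr8). They lie at chr8:12782579-12782828, chr8:12925031-12925280 and chr1:89181113-89181362, all on the plus strand, and capitals mark the match, which reads TGACTCA where it is on the opposite strand.
Mmp13: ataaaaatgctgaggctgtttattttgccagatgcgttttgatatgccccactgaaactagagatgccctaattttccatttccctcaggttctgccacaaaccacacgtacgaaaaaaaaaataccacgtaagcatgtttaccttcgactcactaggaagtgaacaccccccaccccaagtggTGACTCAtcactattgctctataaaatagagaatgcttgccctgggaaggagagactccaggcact
Mmp3: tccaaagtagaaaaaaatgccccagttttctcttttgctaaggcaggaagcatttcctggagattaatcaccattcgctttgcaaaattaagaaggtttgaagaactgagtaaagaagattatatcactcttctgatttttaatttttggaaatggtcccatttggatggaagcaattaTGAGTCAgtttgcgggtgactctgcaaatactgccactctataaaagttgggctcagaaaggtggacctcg
Plaur: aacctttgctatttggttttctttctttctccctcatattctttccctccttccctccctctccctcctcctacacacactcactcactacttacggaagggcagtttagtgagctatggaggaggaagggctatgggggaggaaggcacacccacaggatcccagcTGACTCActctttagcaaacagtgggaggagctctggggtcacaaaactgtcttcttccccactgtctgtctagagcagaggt
Of 142 genes with a probe set called higher, 115 had a promoter in the table, and 10 of these (8.7%) held the AP-1 element. The share was 2.35% (2 of 85) among genes called lower, 3.47% among genes on the array and 4.05% among all promoters. The other 7 called genes with the element were Klhl21, Lama3, Plekhg3, Procr, Srxn1, Stk40 and Zfp455. The antioxidant element TGACNNNGC, which can overlap an AP-1 element, was in 18.3% of genes called higher, 15.3% of those called lower and 12.7% of genes on the array. For the E-box CACGTG these shares were 6.09%, 10.6% and 7.91%, for the EGR element GCGTGGGCG 0.87%, 2.35% and 0.952%, and for TATAAA 11.3%, 8.24% and 8.35%. The cyclic AMP response element was in 2.61% of the genes called higher.

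**Figure D2:**
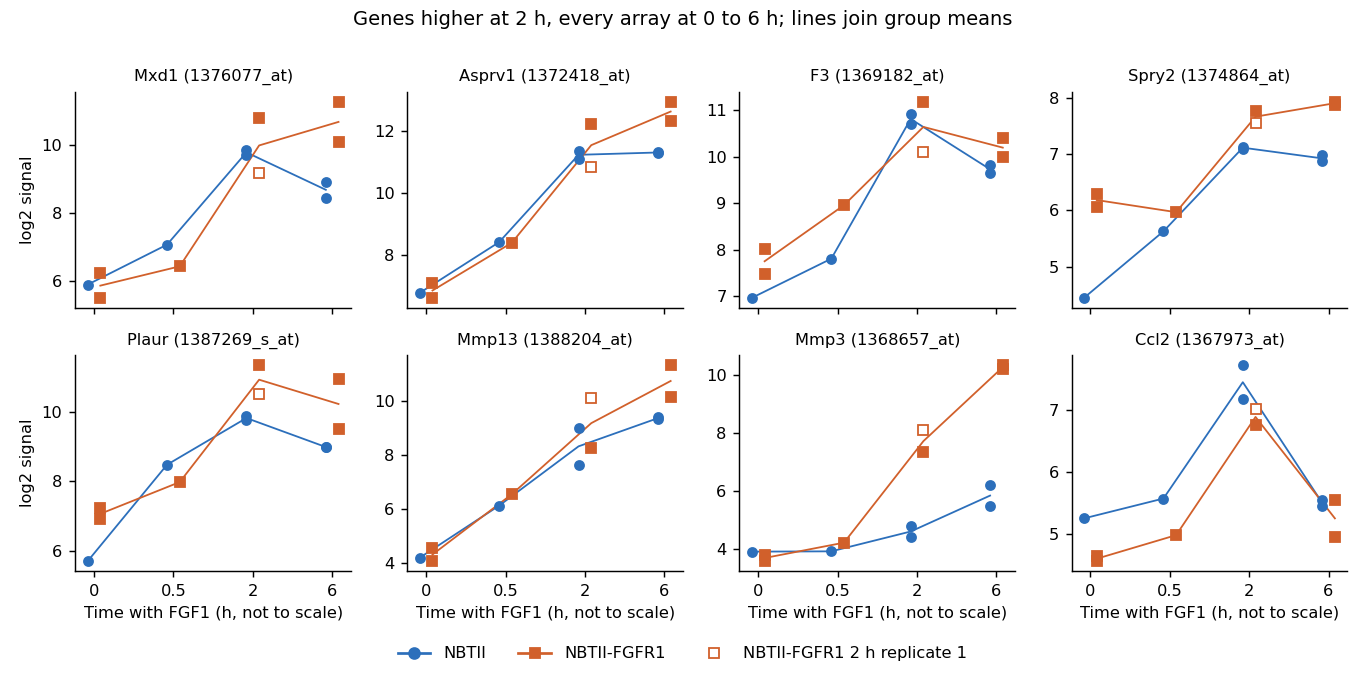
log2 signal of 8 genes that rose from 0.5 to 2 h, on every array at 0, 0.5, 2 and 6 h with FGF1 (x axis, not to scale), with circles for NBTII, squares for NBTII-FGFR1, the open square for NBTII-FGFR1 2 h replicate 1 and lines through the group means. Ccl2 is back at 4.95 to 5.55 by 6 h, whereas Mmp3 in NBTII-FGFR1 goes on to 10.34 and 10.20.

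Of 6 measured ligands of the EGF receptor, 3 rose in the mean of both lines. Hbegf, the heparin-binding ligand, read 7.95 and 8.54 at 0.5 h, 9.56 and 9.73 at 2 h in NBTII, and 9.47 and 10.58 in NBTII-FGFR1 (1.59 ± 0.26, adjusted p = 0.0046). Areg, amphiregulin, read 11.04 and 10.63 at 0.5 h and 11.85, 12.45, 12.09 and 12.83 at 2 h (1.47 ± 0.25, adjusted p = 0.0066). Ereg, epiregulin, read 7.52 and 6.83 at 0.5 h and 8.87, 8.89, 8.45 and 9.91 at 2 h (1.85 ± 0.34, adjusted p = 0.01). For all 3 ligands the 2 h arrays were higher than both 0.5 h arrays. Within a line, Hbegf passed in NBTII (1.70, adjusted p = 0.040) and not in NBTII-FGFR1 (1.48, adjusted p = 0.058), while Areg and Ereg passed in NBTII-FGFR1 (1.84, adjusted p = 0.019, and 2.35, adjusted p = 0.024) and not in NBTII (1.11, adjusted p = 0.17, and 1.36, adjusted p = 0.22). The ligands Tgfa (0.23, adjusted p = 0.39), Btc (0.39, adjusted p = 0.16) and Egf (-0.08, adjusted p = 0.89) were not called. Inhba, the activin A subunit, rose by 0.80 ± 0.17 (adjusted p = 0.025), although NBTII-FGFR1 2 h replicate 1 (4.96) stayed near its 0.5 h array (4.78). Edn1, endothelin 1, fell by 0.70 ± 0.12 (adjusted p = 0.0082). These are the 4 risers and the 1 faller among 36 measured growth factors and receptors, and without that array 8 rose and 1 fell. Vegfa, the vascular growth factor, read 10.27 and 10.19 at 0.5 h and 9.65 to 10.67 at 2 h (0.06 ± 0.17, adjusted p = 0.96).

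Several secreted or metabolic genes rose with them. Nppb, the B-type natriuretic peptide, read 10.61 and 10.91 at 0.5 h and 13.25, 12.93, 11.88 and 13.32 at 2 h (2.09 ± 0.31, adjusted p = 0.002). Arg1, arginase, which makes ornithine, read 6.35 and 7.18 at 0.5 h and 9.29, 7.91, 9.38 and 9.14 at 2 h (2.16 ± 0.26, adjusted p = 0.00062), and passed in each line. Odc1, which turns ornithine into putrescine, read 11.74 and 11.83 at 0.5 h and 12.45, 12.39, 12.66 and 12.83 at 2 h (0.80 ± 0.13, adjusted p = 0.0044). It was the 1 called member of 19 polyamine, purine and pyrimidine synthesis genes, of which 2 others fell without NBTII-FGFR1 2 h replicate 1. Pxdc1 rose by 2.14 ± 0.26 (adjusted p = 0.00059), and Plet1, a surface protein of epithelial progenitors, by 1.93 ± 0.47 (adjusted p = 0.048) with NBTII replicates of 8.51 and 6.51. Hmox1, heme oxygenase 1, read 9.07 and 9.0 at 0.5 h and 10.51, 10.44, 11.31 and 10.61 at 2 h (1.68 ± 0.23, adjusted p = 0.0015). Ndrg1, a hypoxia-responsive gene, rose by 1.29 ± 0.24 (adjusted p = 0.01) and was the 1 called of 27 glycolysis and hypoxia genes, where 2 rose and 2 fell without that array.

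The actin and adhesion list had a median step of 0.16 (limma, 13 members at an unadjusted p below 0.05 in either direction). Of its 42 measured genes, 7 rose in the mean of both lines and 0 fell, beside 1.25% and 0.951% of all genes. Within NBTII 4 of them were called higher and within NBTII-FGFR1 0 were. They were Acta2, Zyx, Tpm4, Pxn, Pdlim7, Cap1 and Cdc42ep3. Zyx, zyxin, a focal adhesion protein, read 8.32 and 8.17 at 0.5 h and 9.52, 9.63, 8.54 and 10.02 at 2 h (1.18 ± 0.27, adjusted p = 0.038). Tpm4, a tropomyosin, read 10.86 and 10.93 at 0.5 h and 11.32, 11.47, 11.32 and 11.35 at 2 h (0.47 ± 0.09, adjusted p = 0.012), a small step with little spread. Cldn4, a tight junction protein, read 9.15 and 9.02 at 0.5 h and 10.73, 10.22, 10.21 and 9.61 at 2 h (1.11 ± 0.21, adjusted p = 0.012). With Amotl2 as the 1 faller, it was the only riser of 21 junction genes.

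Markers of the mesenchymal state did not pass at this step: 0 of 18 were called (limma, 2 at an unadjusted p below 0.05, and 2 rose without NBTII-FGFR1 2 h replicate 1). Vim, vimentin, read 5.13 and 8.01 at 0.5 h and 5.24, 7.35, 8.11 and 8.72 at 2 h (0.79 ± 0.63, adjusted p = 0.73), a gap of over 2 units between the NBTII replicates. Zeb1, a repressor of E-cadherin, had a step of 0.53 ± 0.16 (adjusted p = 0.12, and 0.65, adjusted p = 0.023, without that array). Cdh1, E-cadherin, read 9.16 and 8.79 at 0.5 h and 9.85, 9.59, 9.73 and 9.59 at 2 h (0.72 ± 0.21, adjusted p = 0.11), and Krt5 read 12.56 and 12.93 before and 12.64 to 12.93 after (0.09 ± 0.22, adjusted p = 0.96).

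Growth-related lists were mostly without calls. Without NBTII-FGFR1 2 h replicate 1 larger shares of all genes were called, so a few calls in a list in that setting were not read as a result about it. In the DNA replication and mitosis list 0 of 33 were called (limma, 5 at an unadjusted p below 0.05, and 3 fell without NBTII-FGFR1 2 h replicate 1), with a median step of -0.09 beside 0.00 over all probe sets. Ribosome biogenesis had 1 faller (Rrp1b) of 36, or 4 without that array, and a median of -0.13. Mcl1 of the apoptosis list was called higher on its other probe set, not on the brightest. By brightest probe sets, the lists for cholesterol synthesis (18 measured), the ATF4 response (31), interferon response (22), apoptosis (21) and splicing (27) had 0 calls. Of the members of these lists 3, 3, 2, 3 and 4 had an unadjusted p below 0.05 (limma). Without NBTII-FGFR1 2 h replicate 1 each had calls, 0 higher and 1 lower for cholesterol, 0 and 2 for ATF4, 1 and 1 for interferon, 2 and 1 for apoptosis, and 0 and 1 for splicing. Circadian clock genes had 3 fallers of 11: Per2, Cry2 (-0.58 ± 0.12, adjusted p = 0.019) and Nr1d1 (-0.65 ± 0.16, adjusted p = 0.048), the last with an adjusted p of 0.056 without that array. Sdc1, syndecan 1, a heparan sulfate coreceptor of FGF, read 11.88 and 11.96 at 0.5 h and 12.19 to 12.45 at 2 h (0.39 ± 0.10, adjusted p = 0.048), and was the 1 called of 16 FGF receptors and coreceptors. Fgfr2, the receptor that NBTII cells carry themselves, read 8.28 and 8.69 at 0.5 h and 8.09 to 8.88 at 2 h (-0.01 ± 0.25, adjusted p = 1.0).

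**Figure D3:**
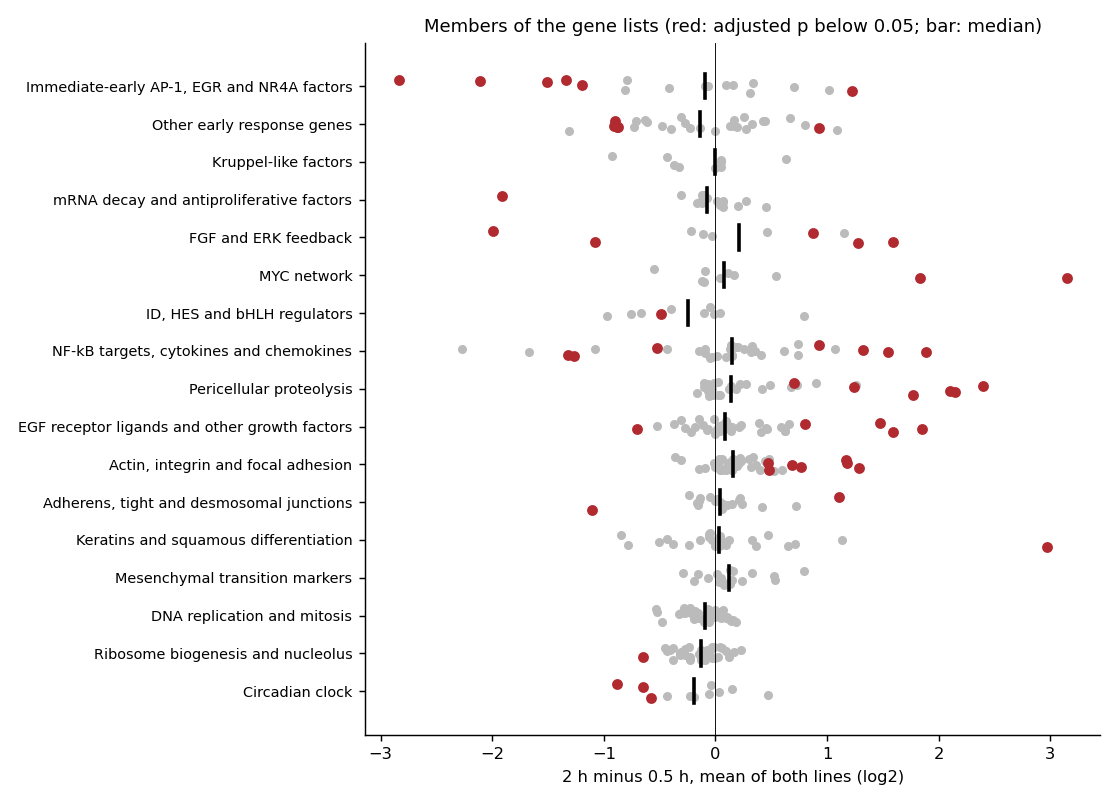
Step from 0.5 to 2 h (x axis, mean of both lines, log2) of each measured member of 17 gene lists, in red where the adjusted p was below 0.05, with a bar at the list median. Pericellular proteolysis and actin genes have red points on the right only (6 of 31 and 7 of 42), and the feedback list has them on both sides.

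The step differed between the lines for 128 probe sets (0.807%), and in 126 of them (0.794%) it was higher in NBTII-FGFR1, against 2 (0.0126%) where it was lower. Without NBTII-FGFR1 2 h replicate 2 the split was 732 to 566, without NBTII 2 h replicate 2 it was 527 to 77, and without NBTII-FGFR1 2 h replicate 1 43 to 3. In 122 of the 126 both NBTII-FGFR1 arrays at 2 h lay above the 0.5 h array, and in 113 both NBTII arrays lay below theirs. Lpin1, a phosphatidate phosphatase, read 6.23 at 0.5 h and 4.71 and 4.80 at 2 h in NBTII, against 5.36 at 0.5 h and 6.58 and 6.18 at 2 h in NBTII-FGFR1 (difference 2.48 ± 0.30, adjusted p = 0.0029). Aggf1, an angiogenic factor, read 10.12 and then 8.62 and 8.82 in NBTII, and 8.52 and then 9.38 and 9.33 in NBTII-FGFR1 (2.23 ± 0.26, adjusted p = 0.0029). Homer1, a synaptic scaffold gene with an early-induced short form, differed by 1.62 ± 0.20 (adjusted p = 0.0033). Iqgap2, a scaffold of the actin skeleton, differed by 1.70 ± 0.22 (adjusted p = 0.0035). Rc3h1, the RNA decay factor roquin, differed by 1.86 ± 0.27 (adjusted p = 0.0094).

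This set leans on single arrays. In all 126 probe sets the NBTII-FGFR1 0.5 h array lay below the NBTII 0.5 h array, and in 92 it lay below both NBTII-FGFR1 0 h arrays. The median level over the 126 was 7.97 in NBTII and 6.97 in NBTII-FGFR1 at 0.5 h, 7.23 to 7.51 on the 0 h arrays, 6.92 and 7.43 in NBTII at 2 h, and 7.99 and 7.71 in NBTII-FGFR1 at 2 h. In 115 of the 126, NBTII 2 h replicate 1 was lower than replicate 2. With no second array at 0.5 h, a line difference and a deviation of 1 array cannot be told apart. Leaving out NBTII-FGFR1 2 h replicate 1 left 37 of the 126 called, and leaving out NBTII 2 h replicate 1 left 35 calls in all. Whichever array at 2 h was left out, the difference was 2.65 to 3.35 for Fosb and 3.14 to 3.75 for Nr4a1. It was likewise 2.13 to 2.33 for Aggf1, 2.28 to 2.68 for Lpin1 and 1.55 to 1.69 for Homer1. For Iqgap2 it was 1.59 to 1.80 and for Rc3h1 1.61 to 2.10. These fits all keep the single arrays at 0.5 h and so do not test them.

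**Figure D4:**
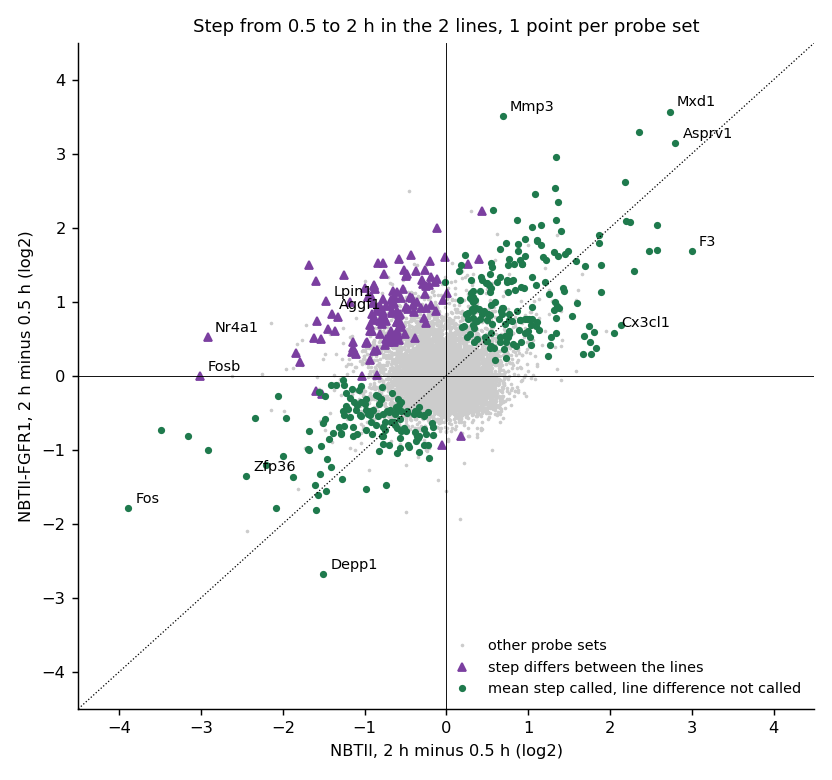
Step from 0.5 to 2 h in NBTII (x axis, log2) against the step in NBTII-FGFR1 (y axis, log2) for 15866 probe sets, with green points where the mean of both lines was called and the line difference was not, purple triangles where the step differed between the lines, and a dotted line of equal steps. Nearly all of the 128 triangles lie above the dotted line, with Fosb and Nr4a1 at the left, and Mxd1, Asprv1 and F3 lie at the upper right.

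The doubted array NBTII-FGFR1 2 h replicate 1 showed the falls less completely than the rises. Over the 147 probe sets called lower, its median step from 0.5 h was -0.39, against -0.74 for replicate 2 and -1.01 and -0.86 for NBTII. It lay nearer to the 0.5 h array than replicate 2 did in 123 of the 147. Over the 197 called higher, its median step was 0.94, against 1.12 for replicate 2 and 0.75 and 0.78 for NBTII, and it was nearer to 0.5 h in 135. In 131 of the 147 and 186 of the 197, all 2 h arrays lay on 1 side of the 0.5 h array of their line. Over all probe sets 11.4% and 10% did so in the 2 directions. The called sets were chosen on these same arrays, so their high shares follow from the choice and are no support for the calls. On NBTII-FGFR1 2 h replicate 1, Mmp13 (10.10) and Hmox1 (11.31) were above replicate 2 (8.24 and 10.61). On the same array Cxcl1 (11.27) and Irf1 (7.60) were within 0.1 of the 0.5 h array, and Atf3 (9.74) was above it. Its 3′ minus 5′ difference was -0.15 for the Gapdh control and 0.49 for the actin control, within the ranges of -0.17 to 0.01 and 0.38 to 0.57 over the 6 arrays. Its hybridization spikes read 9.71 on average, against 9.36 to 9.48 on the other 5 arrays. The part of these values in the result was not tested.

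**Figure D5:**
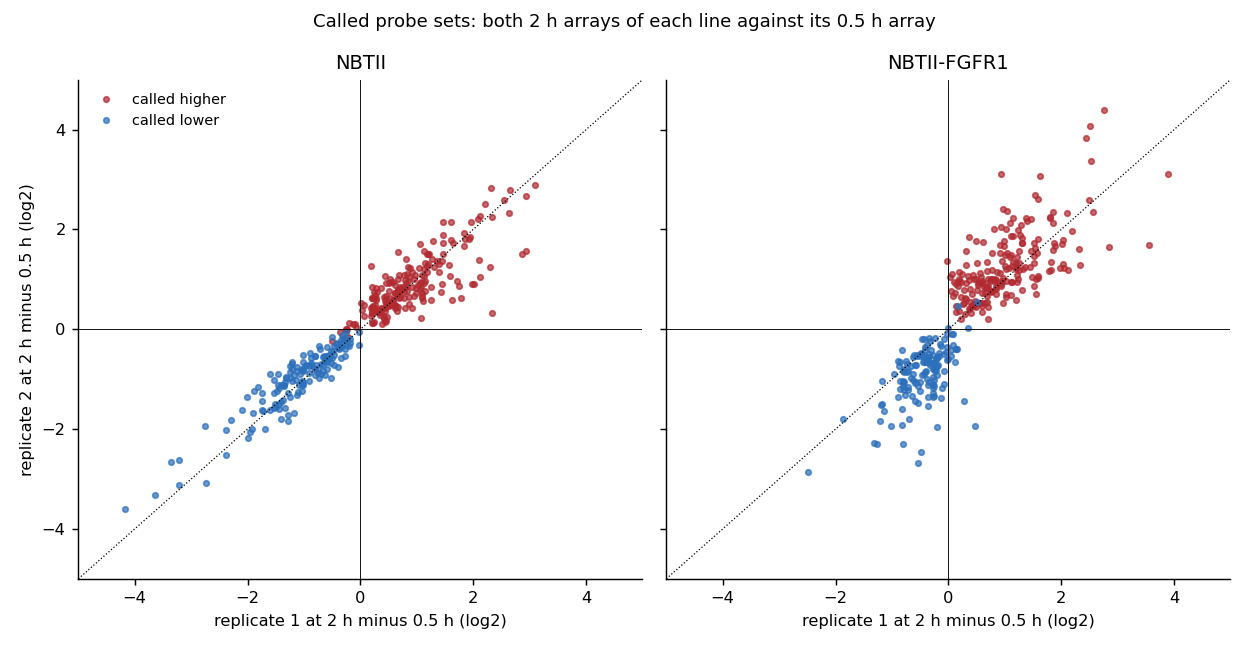
Replicate 1 (x axis) and replicate 2 (y axis) at 2 h, each minus the 0.5 h array of the line (log2), for the 197 probe sets called higher (red) and the 147 called lower (blue) in the mean of both lines. In NBTII the points follow the dotted line of equality, and in NBTII-FGFR1 most blue points lie below it, as replicate 1 had fallen less than replicate 2 (medians -0.39 and -0.74).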

How the data were processed

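Total RNA was measured on 21 Affymetrix arrays, 1 per sample. The deposited values are log2 intensities made by the authors with RMA, per the submitters' processing notes (version not given in the sources used here), and were used as they stand. Of 15923 probe sets, 57 controls were left out and 15866 tested. By the platform annotation, which can be old, 12783 carry 1 gene symbol, 312 several and 2771 none (10411 symbols), and 12748 of the 12783 matched RefSeq by Entrez ID.

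A model with 1 mean for each of 12 line and time groups was fitted (limma 3.58.1, R 4.3.3; 9 residual and 5.68 prior degrees of freedom), with Benjamini-Hochberg adjustment over all 15866 probe sets in each of 4 comparisons (the mean of both lines, each line and the line difference) and a threshold of 0.05. The number of arrays limits the precision. The fit was tested on simulated data. Tables and figures used Python 3.11.15, pandas 2.3.3, numpy 2.4.6 and matplotlib 3.10.9.

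Named were 59 fixed genes (55 measured), the 12 largest called steps per direction in the mean, 4 per direction within a line and up to 5 for the line difference, plus up to 4 members per list with the smallest p, for 32 lists. In the first 2 rankings the arrays at 2 h had to lie on 1 side of the 0.5 h array. Symbols that begin with LOC or RGD were passed over. In lists, the brightest probe set on average stood for its gene. The members and lists were chosen with earlier results of these data known. Nr4a3, Spry1, Csf3, Adam10, Cap1, Pxn, Zyx, Tgfa, Btc, Egf and the genes named for a promoter match alone fall outside this rule. They were chosen after their values were seen. Alternatives were a filter on dim probe sets, replicate number as a block, the 6 arrays alone, additive terms, renewed quantile normalization, trend and robust moderation, array weights, averaged probe sets per gene (list medians only) and single arrays left out. Promoters are the 250 bases before the RefSeq start (GRCr8), searched on both strands.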

Additional observations from a re-analysis of the deposited data

Results flagged for a closer look

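For 11 named genes the step from 0.5 h to 2 h differed between the lines by the test of the difference itself (limma, adjusted p below 0.05), given here as the step in NBTII-FGFR1 minus the step in NBTII, in log2 units. It was higher in NBTII-FGFR1 for Fosb (3.0), Nr4a1 (3.44), Nr4a2 (1.48), Aggf1 (2.23), Lpin1 (2.48), Homer1 (1.62), Iqgap2 (1.70), Rgs2 (1.40) and Rc3h1 (1.86). It was lower in NBTII-FGFR1 for Hes1 (-0.88) and Zfp524 (-1.0). Of these 11, 8 were called without NBTII-FGFR1 2 h replicate 1, 8 without NBTII 2 h replicate 1 and 11 without either of the second replicates. Each line has 1 array at 0.5 h, so a difference between the lines and a deviation of that array cannot be told apart.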

How the results depend on the processing

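Of the 65 named calls in the mean of both lines, 50 could be compared under the filter on dim probe sets, and averaging the probe sets of a gene was done for list medians only. Under the other alternatives all 65 kept their direction except Nr4a1, which was 0.52 without the NBTII 0.5 h array in a model with additive terms, where only NBTII-FGFR1 gives the step. With only the 6 arrays, 0 probe sets were called in the mean, in NBTII, in NBTII-FGFR1 and in the line difference (limma, 1011, 921, 889 and 798 at an unadjusted p below 0.05). With line and time as additive terms, 0 were called with all 6 arrays and 0 without either 0.5 h array (967, 889 and 921 at an unadjusted p below 0.05). Fewer arrays leave fewer degrees of freedom. Leaving out 1 array at 2 h gave 268 to 941 calls in the mean (941 without NBTII-FGFR1 replicate 1), 49 to 523 in NBTII (49 without NBTII replicate 1), 406 to 783 in NBTII-FGFR1 and 35 to 1298 in the line difference (35 without NBTII replicate 1, 1298 without NBTII-FGFR1 replicate 2). The filter on dim probe sets gave 113 calls in NBTII, array weights gave 156 in NBTII-FGFR1, and leaving out the doubted NBTII-FGFR1 0 h replicate 1, an alternative chosen after seeing the data, gave 74 in the line difference, 254 in the mean and 199 in NBTII-FGFR1; the cause was not tested. Same-numbered replicates deviated together (r above 0.1) in 15 of 36 pairs of groups (r from -0.13 to 0.35). The numbers were therefore not taken to pair the arrays across the whole time course. Within the lines, all 6 pairs among NBTII at 2 to 48 h had r of 0.11 to 0.23. In NBTII-FGFR1 r was 0.33 for 2 h with 6 h, 0.17 for 2 h with 24 h and 0.35 for 6 h with 24 h. Pairs of NBTII-FGFR1 groups that include 0 h or 48 h had r below 0.1, down to -0.11. Whether same-numbered arrays of a line share a source was not tested, and the main fit holds no replicate block. With the replicate block 247 probe sets were called in the mean, 158 in NBTII, 247 in NBTII-FGFR1 and 137 in the line difference, and 54 of the 65 named calls remained. Lost with the block were Atf3, Ier3, Nfkbia, Il6, Ptgs2, Ajuba, Per2, Rrp1b, Dnaja1, Fzd1 and Sdc1, and Cdh1 and Slc2a1 were gained. Without NBTII 2 h replicate 1, 16 of the 65 lost their call, without NBTII 2 h replicate 2, 14 did, and without NBTII-FGFR1 2 h replicate 2, 11 did. Atf3, Il6, Ptgs2, Ajuba, Ezh1, Cdca7, Rrp1b and Sdc1 lost it when either NBTII array was left out.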
